A study of Mus musculus with 9 samples.

Results

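The transglutaminase genes Tgm1, Tgm2 and F13a1, 3 of the 33586 entries in the deposited table, were followed in mouse brain. The genes were chosen by name from measured values of the same libraries, since the rise of Tgm1 and the levels of F13a1 were known beforehand. Their levels and differences are therefore a description, with no test. The study used RNA sequencing of tissue beside the haematoma in a model of intracerebral haemorrhage made by injecting collagenase, which digests the collagen around vessels. Its 9 libraries carry the names control, experimental or intervention, 3 each, and the series title names miR-124 on a tetrahedral nucleic acid carrier as the treatment. The labels give neither strain, age, agent, dose nor time for any group, do not say whether the control had a haemorrhage, and do not say that libraries came from separate animals, so that every spread given here is one between libraries. Levels are FPKM, fragments scaled for gene length and for the size of the library.

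Transglutaminases are calcium-dependent enzymes that join a glutamine of one protein to a lysine of another and so weld proteins into nets that resist proteolysis. Tgm1 encodes the membrane-anchored transglutaminase 1, best known in the epidermis, where it builds the cornified envelope. Tgm2 encodes tissue transglutaminase, an enzyme of endothelium, macrophages and fibroblasts that acts on matrix proteins such as fibronectin and also binds GTP. F13a1 encodes the catalytic A subunit of coagulation factor XIII, which cross-links fibrin in a clot and is made by platelets, monocytes and macrophages.

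The tissue carried the markers of brain, with a summed level of 12 neuronal markers between 984 and 1510 FPKM over the 9 libraries, led by Camk2a and Snap25. Between 13408 and 14260 genes per library reached 1 FPKM. The table holds no counts, so that the depth of the libraries is unknown. On principal component 1 (64.5% of variance) controls were at -38.6 to -36.4 and all others at 5.72 to 27.0.

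Tgm1 lies on chromosome 14 at 55700009 to 55713926, minus strand (mm10, GENCODE M21, ENSMUSG00000022218.16), and its longest transcript has 15 exons. Tgm2 lies on chromosome 2 at 158116402 to 158146436, minus strand (ENSMUSG00000037820.15), with 13 exons. F13a1 lies on chromosome 13 at 36867178 to 37050244, minus strand (ENSMUSG00000039109.16), with 15 exons. RefSeq promoter sequences (build GRCm38.p6, 250 bases before to 50 after the start) were matched for Tgm1 and F13a1, 2 of the 3 genes, with 2 starts each. One start of each is shown, the one nearest to the start of its longest transcript, because both genes were under 0.5 FPKM in control tissue and above 1 FPKM in all other libraries. Both are given 5′ to 3′ on the minus strand, at chr14:55713443-55713742 for Tgm1 and chr13:37049164-37049463 for F13a1, with capitals for the motif matches described next.

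Tgm1: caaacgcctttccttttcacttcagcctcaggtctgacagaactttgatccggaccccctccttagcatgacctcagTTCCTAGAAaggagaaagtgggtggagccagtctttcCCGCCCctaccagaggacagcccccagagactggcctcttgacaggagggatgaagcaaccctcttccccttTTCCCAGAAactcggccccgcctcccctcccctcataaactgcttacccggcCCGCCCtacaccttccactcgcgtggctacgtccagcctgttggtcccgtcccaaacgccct

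F13a1: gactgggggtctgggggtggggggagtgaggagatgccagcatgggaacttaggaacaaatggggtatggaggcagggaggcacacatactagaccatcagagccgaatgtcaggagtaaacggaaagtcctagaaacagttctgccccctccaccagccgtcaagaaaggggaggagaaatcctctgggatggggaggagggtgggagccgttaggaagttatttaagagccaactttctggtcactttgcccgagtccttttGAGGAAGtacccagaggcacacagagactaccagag

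Motifs for a TATA box (TATAAA), AP-1 (TGANTCA), the myeloid factor PU.1 (GAGGAAG), SP1 (GGGCGG) and STAT factors (TTCNNNGAA) were searched on both strands. The Tgm1 stretch held 2 matches of the STAT motif and 2 of the SP1 motif, and none of the other motifs. The other start of Tgm1 held no match of any of these motifs. Among all 32851 promoters of this length 8.3% held the STAT motif and 35.7% the SP1 motif. The F13a1 stretch held 1 PU.1 match, which 13.6% of all promoters held, and the other start of F13a1 held 2. No start of either gene held a TATA box or AP-1 match, which 13.6% and 7.81% of all promoters held. These are matches of letters, and none was tested for binding.

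Tgm1 was at or near 0 in control tissue and among the more abundant transcripts in the experimental group. It was at 0.0204, 0 and 0.000569 FPKM in control libraries 1, 2 and 3. In the experimental libraries it was at 24.2, 37.9 and 45.5 FPKM. In the intervention libraries it was at 28.5, 23.0 and 15.7 FPKM. Every experimental and every intervention library lay above every control library, while the experimental and intervention groups overlapped, since experimental library 1 lay below intervention library 1. The group means ± SD were 0.00698 ± 0.0116, 35.8 ± 10.8 and 22.4 ± 6.44 FPKM (n = 3 each). In bulk tissue a change in the number of cells of a type and a change in RNA per cell cannot be told apart.

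On the log2(FPKM + 1) scale Tgm1 was 5.15 ± 0.24 (estimate ± SE) higher in the experimental than in the control group and 4.50 ± 0.24 higher in the intervention than in the control group. Each of these differences was in place 2 from the top among the 14570 tested genes. Between the intervention and the experimental group the difference was -0.65 ± 0.24, and it ranged from -0.90 without experimental library 1 to -0.42 without intervention library 3 when each library was left out in turn. The added 1 FPKM sets the size of a difference from a level near 0: with 0.1 FPKM added, the values against control were 8.35 and 7.68. For control libraries 1 and 3 the Tgm1 value was multiplied by the joined exon length and expressed in millionths. The resulting whole number was a multiple of the length of 1 annotated transcript alone, the longest one.

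Tgm2 was present in every library. In control libraries 1, 2 and 3 it was at 4.04, 3.59 and 3.53 FPKM. In the experimental libraries it was at 13.3, 12.8 and 13.4 FPKM. In the intervention libraries it was at 7.97, 10.3 and 9.46 FPKM. No 2 groups overlapped, and the intervention libraries lay between the others. The means ± SD were 3.72 ± 0.278, 13.1 ± 0.293 and 9.23 ± 1.17 FPKM. The differences in log2(FPKM + 1) were 1.58 ± 0.09 for experimental versus control, -0.47 ± 0.09 for intervention versus experimental and 1.11 ± 0.09 for intervention versus control. In FPKM the mean of the experimental group was 3.53 times and that of the intervention group 2.48 times the control mean.

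F13a1 was the lowest of the 3 in the experimental and intervention groups. It was at 0.436, 0.211 and 0.26 FPKM in control libraries 1, 2 and 3. The experimental libraries held 2.36, 2.46 and 2.3 FPKM. The intervention libraries held 1.08, 1.4 and 1.27 FPKM. As for Tgm2, no 2 groups overlapped and the intervention group lay between the others. The means ± SD were 0.302 ± 0.118, 2.37 ± 0.0853 and 1.25 ± 0.162 FPKM. The differences in log2(FPKM + 1) were 1.38 ± 0.10 for experimental versus control, -0.59 ± 0.10 for intervention versus experimental and 0.79 ± 0.10 for intervention versus control. The last value was 0.46 with quantile normalization and 1.25 rescaled to TPM. The FPKM sums of the libraries, between 303394 and 351195, lie below the total of TPM. Rescaling therefore raises every value, and the added 1 weighs less, which enlarges differences from low levels. At these low levels the added 1 FPKM shrinks a difference, and with 0.1 FPKM added the differences from control were 2.66 and 1.78. In FPKM the means were 7.86 and 4.14 times the control mean. The intervention mean was 0.527 times the experimental mean for F13a1, 0.703 times for Tgm2 and 0.625 times for Tgm1.

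**Figure D1:**
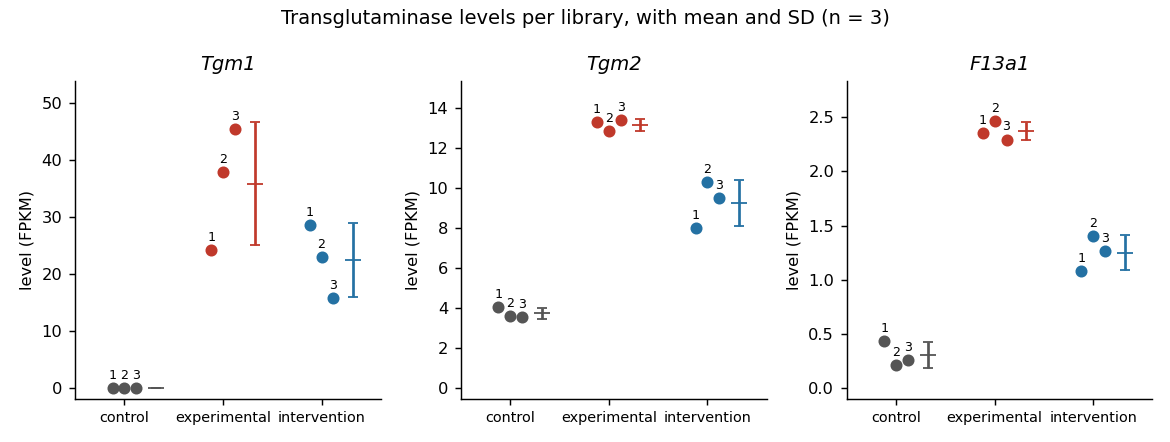
Level in FPKM (vertical axis) of Tgm1, Tgm2 and F13a1 in each library of the 3 groups (points, with the replicate number), beside the group mean and SD (n = 3). For Tgm2 and F13a1 the 3 groups do not overlap, while for Tgm1 experimental library 1, at 24.2 FPKM, lies below intervention library 1, at 28.5 FPKM.

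All 3 genes passed the filter of 1 FPKM in 3 libraries, Tgm2 in all 9 libraries and Tgm1 and F13a1 in the experimental and intervention libraries alone. The groups did not overlap for 3 of the 3 genes in experimental versus control, where 25.7% of all tested genes were higher in every library. The same held for 3 of the 3 in intervention versus control, against 23.5% of all tested genes. It held for 2 of the 3, Tgm2 and F13a1, for a lower level in intervention versus experimental, against 8.16%. In limma with Benjamini-Hochberg adjustment over all genes, 3 of the 3 were among the genes called higher in experimental versus control (19.9% called higher and 17.3% lower) and in intervention versus control (16.9% and 11.4%). In intervention versus experimental none of the 3 was called, nor was any of the 14570 genes (0%), while 1352 genes had an unadjusted p under 0.05. With quantile normalization 2 genes were called higher and 33 lower there, F13a1 among the latter. These comparisons share groups, and the genes were chosen on them. Tgm1 and F13a1 also passed the filter through the groups where they were high, which favours a call of higher. The counts and calls therefore stand as a description and are no test of the 3 genes. Rescaled to TPM, which moved the median of all genes to -0.18 and -0.15 in the comparisons with control, 2175 genes were higher and 4661 lower in experimental versus control, in place of 2894 and 2521. In intervention versus control 1706 were then higher and 3622 lower, in place of 2461 and 1659, and with quantile normalization 2009 and 2041.

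**Figure D2:**
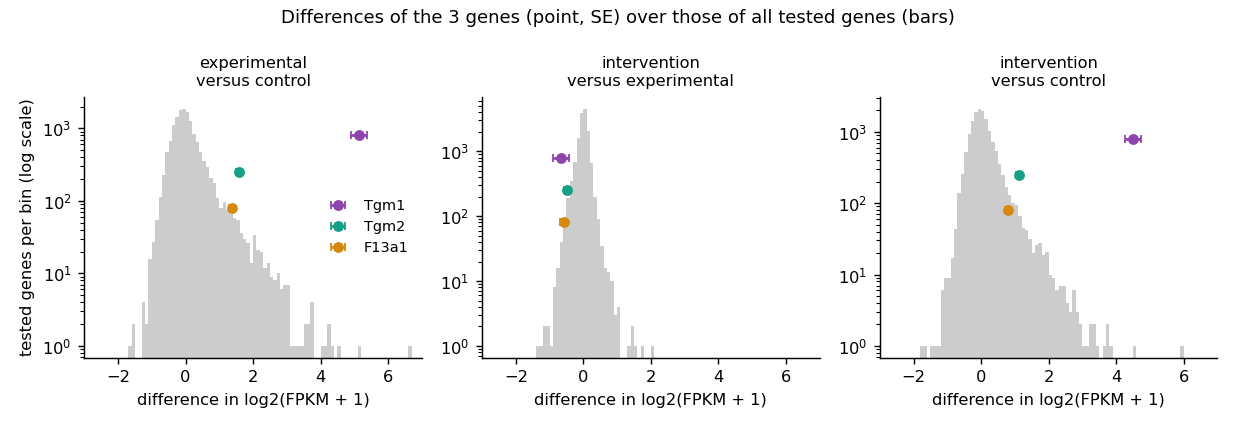
Differences in log2(FPKM + 1) of Tgm1, Tgm2 and F13a1 (points with SE, their height without meaning) over a histogram of the differences of all 14570 tested genes (bars, log scale) in the 3 comparisons. Tgm1 lies far to the right in both comparisons with control, at 5.15 and 4.50, and all 3 genes lie left of 0, between -0.65 and -0.47, in intervention versus experimental.

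The order of the 3 levels changed with the group. In control tissue Tgm2 was highest, F13a1 next and Tgm1 lowest, in each of the 3 libraries. In each experimental and each intervention library Tgm1 was highest, Tgm2 next and F13a1 lowest, and no neighbours in this order overlapped between libraries of a group. The level of Tgm1 divided by that of Tgm2 was between 1.82 and 3.41 in experimental and between 1.66 and 3.58 in intervention libraries, so that these ranges overlapped. The level of Tgm2 divided by that of F13a1 was between 5.2 and 5.82 in experimental, between 7.32 and 7.46 in intervention and between 9.27 and 17.0 in control libraries, with no overlap. The values of these 3 genes fit sums over transcripts divided by the joined exon length, which is 1.11 times the longest transcript for Tgm1, 1.28 times for Tgm2 and 1.71 times for F13a1. Per length of the longest transcript the experimental means were 39.7 ± 11.98 FPKM for Tgm1, 16.8 ± 0.375 FPKM for Tgm2 and 4.05 ± 0.146 FPKM for F13a1, in the same order.

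The other 7 genes of the family stayed low, and none reached the filter. Tgm3, an epidermal and hair follicle transglutaminase, averaged 0.7235 ± 0.324 FPKM for controls, 0.36 ± 0.05395 FPKM for the experimental and 0.638 ± 0.124 FPKM for the intervention group. Its experimental libraries lay below all others (exact permutation test, two-sided p = 0.1 against control and against intervention, the smallest that 3 against 3 allow). Tgm4, the prostate enzyme, Tgm5, an epidermal enzyme, and Tgm6 and Tgm7 were each under 0.5 FPKM in every library. So were F13b, the carrier subunit of factor XIII in plasma, and Epb42, a red cell membrane protein of the family that lacks enzyme activity, and F13b was above 0 in a single library. Over all 10 genes the summed level averaged 4.995 ± 0.348 FPKM for controls, 52.0 ± 10.9 FPKM for the experimental and 34.0 ± 5.65 FPKM for the intervention group. Tgm2 made up 74.5% of this sum in control, while Tgm1 made up 68.9% and 66.0% of it in the experimental and intervention groups.

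**Figure D3:**
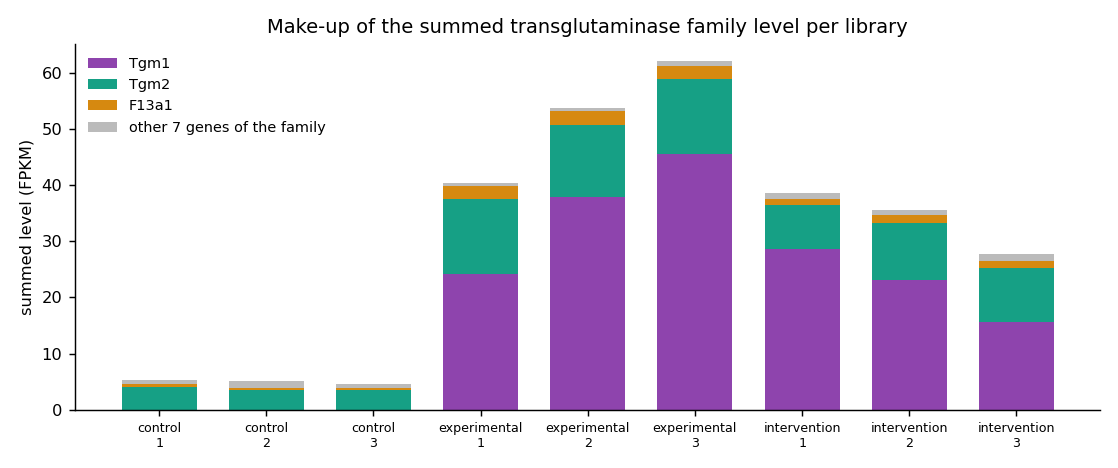
Summed level in FPKM (vertical axis) of 10 transglutaminase family genes in each library, split into Tgm1, Tgm2, F13a1 and the other 7. The control bars, between 4.60 and 5.25 FPKM, are mostly Tgm2, while in the experimental and intervention bars, between 27.7 and 62.0 FPKM, Tgm1 is the largest share.

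Within a group the 3 genes did not vary alike. The deviations of Tgm2 and F13a1 from their group means had r = 0.824 over the 9 libraries. Both genes were lowest in library 1 of the intervention group and highest in library 1 of the controls. Among the experimental libraries, whose deviations were small (0.04 or less in log2), they ran the opposite way, with Tgm2 lowest and F13a1 highest in library 2. For Tgm1 the r was -0.314 with Tgm2 and -0.193 with F13a1, and in the intervention group it was highest in library 1, where both others were lowest. The correlations over the 9 libraries without removal of group means were 0.962, 0.928 and 0.987 for Tgm1 with Tgm2, Tgm1 with F13a1 and Tgm2 with F13a1. They mostly carry the distance of the control group. All these values share the libraries and their scaling and are descriptions without a test.

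The genes whose levels ran most like those of Tgm1 over the 9 libraries were Ctsd, a lysosomal protease, Ggta1, a galactosyltransferase, Vim, an intermediate filament of glia, Olfml3, a gene of microglia, and Cd180, a receptor related to Toll-like receptors (r = 0.999 each, among 14570 tested genes). Within groups their r with Tgm1 was between 0.956 and 0.99. The deviations within groups are part of the r by which all nearest genes were chosen. Ctsd averaged 148.3 ± 1.54, 1040 ± 124 and 811 ± 95.3 FPKM in the control, experimental and intervention groups. Like Tgm1, it was lowest in library 1 of the experimental and library 3 of the intervention group. The nearest genes of Tgm2 were the chemokine receptor Ccr1, the cytokine receptor subunits Csf2rb and Csf2rb2, the matrix protein Tgfbi and the clotting protein Vwf (r between 0.995 and 0.996, and within groups between 0.693 and 0.884). Ccr1 was at 0.0459 ± 0.0295, 2.14 ± 0.0731 and 1.15 ± 0.273 FPKM in the 3 groups. The nearest genes of F13a1 were Acp5, a phosphatase of macrophages and osteoclasts, Ehd2, a protein of caveolae, the class II gene H2-Ab1, Adgrl4, a receptor of endothelium, and Lhfpl2 (r between 0.992 and 0.995, and within groups between 0.703 and 0.898). Acp5 was at 0.187 ± 0.0809, 2.38 ± 0.227 and 1.29 ± 0.313 FPKM. Many genes follow the groups, as 1735, 1576 and 1399 tested genes had an r over 0.9 with Tgm1, Tgm2 and F13a1.

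**Figure D4:**
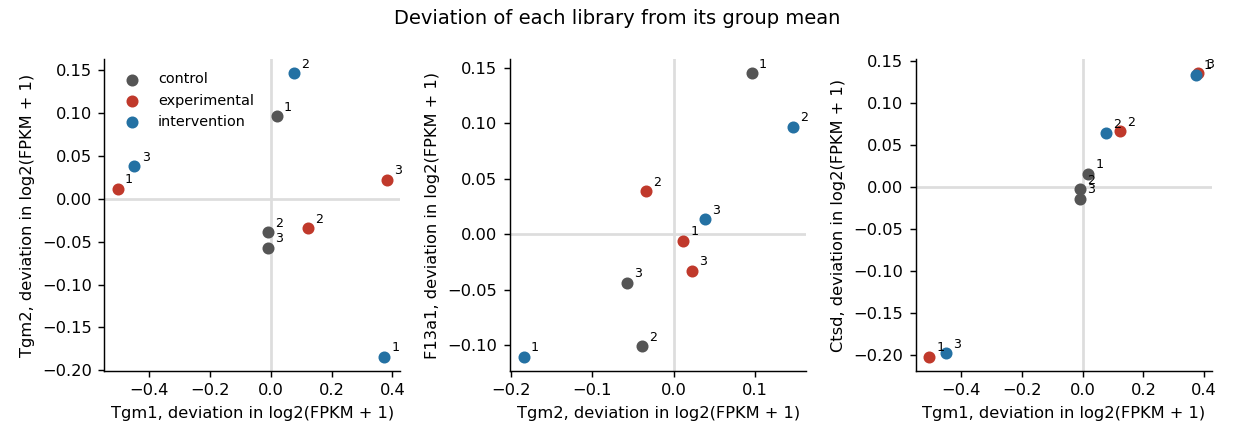
Deviation of each library from its group mean in log2(FPKM + 1), for Tgm1 against Tgm2, Tgm2 against F13a1 and Tgm1 against Ctsd (points are libraries, with the replicate number). Tgm2 and F13a1 deviate alike in the control and intervention groups and in opposite directions in the experimental group (r = 0.824 over all 9), Tgm1 and Tgm2 have r = -0.314, and Tgm1 and Ctsd lie close to a line (r = 0.99, for a gene chosen as the nearest in level).

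Genes beside the 3 on the chromosome were looked at after the values were seen. Within 50000 bases of Tgm1 lie 8 other tested coding genes. Rabggta, a prenyltransferase subunit 1490 bases away on the same strand, averaged 9.42 ± 0.899 FPKM for controls and 9.22 ± 0.457 FPKM for the experimental group (log2 difference -0.03 ± 0.08, limma adjusted p = 0.8345). Dhrs1, a dehydrogenase 25094 bases away, rose from 17.8 ± 0.651 to 68.7 ± 13.2 FPKM (1.87 ± 0.14, adjusted p = 9.39e-06), and Nop9, Tinf2 and Cideb rose by 0.67, 0.38 and 0.42. Gmpr2, Nedd8 and Mdp1 did not pass (0.10, 0.05 and -0.06, limma adjusted p = 0.398, 0.741 and 0.62). Of all tested genes 19.9% were called higher in this comparison. The call of Tinf2 was lost without control library 3 or experimental library 1 (adjusted p = 0.053 and 0.0531) and rescaled to TPM (0.0525). The call of Cideb (adjusted p = 0.0492) was lost without control 1 or 2, experimental 1 or 3, or intervention 1 or 3 (adjusted p from 0.0543 to 0.16). It was also lost with a pseudocount of 0.1 (0.0517), with no filter (0.126), rescaled to TPM (0.0786), with only the groups compared in the fit (0.0559) and with quantile normalization, where the difference was 0.18 (0.416). Rprd1b overlaps Tgm2 on the opposite strand and was at 4.57 ± 0.504 and 4.06 ± 0.503 FPKM (-0.14 ± 0.11, adjusted p = 0.342). D630003M21Rik, 36097 bases from Tgm2, did not pass either (0.18 ± 0.08, limma adjusted p = 0.106). No other coding gene of the table lay within 50000 bases of F13a1. The annotated antisense genes over Tgm1 (Gm49067) and F13a1 (Gm49144 and Gm30489) were at 0.245 FPKM or less in every library. The labels do not say whether quantification used the strand.

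The other family members and the partners, substrates and inducers of the enzymes were read from 6 pathway lists, which hold 71 distinct genes besides the 3, of which 67 had an entry and 38 were tested. In experimental versus control 29 of the 38 rose and 0 fell in limma, beside 19.9% higher and 17.3% lower of all tested genes. In intervention versus control 27 rose and 0 fell, beside 16.9% and 11.4%. In intervention versus experimental 0 passed. Rescaled to TPM 2, and with quantile normalization 3, fell in experimental versus control. Some pathway genes, such as Thbs1, Tgfb1 and Anxa1, averaged under 1 FPKM in control. These passed the filter through the other groups, which favours a rise.

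Of the fibrin clot and factor XIII substrates 4 of 5 tested genes rose in experimental versus control, with a median log2 difference of 1.55 beside -0.03 over all tested genes. The adhesive matrix protein Fn1 rose from 4.035 ± 0.327 to 19.1 ± 3.52 FPKM (3.96-fold on the log2(FPKM + 1) scale, limma adjusted p = 4.935e-06). On the same scale Thbs1, a platelet and matrix glycoprotein, rose 6.46-fold, the carrier of factor VIII Vwf 2.92-fold, and vitronectin (Vtn) 1.33-fold. The added 1 FPKM shrinks such folds at low levels, and in FPKM the means of Thbs1 went from 0.558 to 9.23. In intervention versus control the same 4 genes rose, with a median of 1.1. In intervention versus experimental the median was -0.45, and Fn1 was at -0.60 ± 0.14 (adjusted p = 0.139) and Thbs1 at -0.91 ± 0.27 (adjusted p = 0.263). The transcripts of the fibrinogen chains Fga, Fgb and Fgg, of prothrombin (F2), plasminogen (Plg), its inhibitor antiplasmin (Serpinf2) and the carboxypeptidase Cpb2 were under 0.5 FPKM in every library.

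Of the partners and substrates of tissue transglutaminase 12 of 13 tested genes rose in experimental versus control, with a median of 0.95, and 11 rose in intervention versus control, with a median of 0.68. Osteopontin (Spp1), a secreted substrate, rose from 8.6 ± 2.57 to 171.3 ± 14.7 FPKM (18.4-fold on the log2(FPKM + 1) scale, limma adjusted p = 3.8e-07). Tgfb1, whose latent form is stored in the matrix, rose 3.22-fold, and Itgb1, the integrin chain that binds tissue transglutaminase at the cell surface, rose 1.93-fold. Mfge8, a bridge protein in the uptake of dying cells, did not pass (0.22, adjusted p = 0.128). In intervention versus experimental the median was -0.14, and Spp1 was at -0.54 ± 0.18 (adjusted p = 0.337).

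Of 15 cornified envelope genes 12 had an entry and 6 were tested, of which 4 rose in experimental versus control and in intervention versus control, with medians of 0.87 and 0.66. These 4 are also expressed outside the epidermis. S100a11, a calcium-binding protein, rose from 4.6 ± 0.619 to 39.2 ± 7.45 FPKM (7.12-fold, limma adjusted p = 2.52e-06), S100a10 rose 2-fold, the protease inhibitor Cstb 1.98-fold and the annexin Anxa1 1.68-fold. Loricrin (Lor), the main envelope protein of the epidermis, was at 3.76 ± 0.683 and 2.77 ± 0.728 FPKM (-0.35 ± 0.16, adjusted p = 0.12). Its call was gained at -0.49 without experimental library 2, at -0.56 rescaled to TPM and at -0.44 with quantile normalization. Ppl, Flg and Sprr2a1 were under 0.5 FPKM in every library, and Sprr1a, a small proline-rich envelope protein under the filter, was at 0.0375 ± 0.0649, 0.441 ± 0.254 and 0.842 ± 0.0573 FPKM in the 3 groups (exact permutation test, two-sided p = 0.1 for each pair of groups).

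Of 12 known inducers of tissue transglutaminase 9 were tested, and the cytokine gene Il6 was under 0.5 FPKM in every library. In experimental versus control 5 of the 9 rose, with a median of 0.31, and 4 rose in intervention versus control. Beside Tgfb1, the transcription factor Stat3 rose 2.08-fold, and the NF-kB genes Nfkb1 and Rela rose 1.55-fold and 1.42-fold. Of the retinoid receptor genes Rxra rose (0.30, adjusted p = 0.0346), and Rara, Rarb and Rxrb did not pass. Of 12 genes of macrophage activation by interleukin 4, a setting in which both Tgm2 and F13a1 are known to be made, 7 were tested. Retnla had no entry, and Cd209a was under 0.5 FPKM in every library. In both comparisons with control 6 of the 7 rose, with medians of 1.47 and 0.94. Il4ra, Arg1, Mrc1, Chil3 and Msr1 averaged under 1 FPKM in control. They passed the filter through the other groups, which favours a rise, so the count is a description. Arg1, an arginase, rose from 0.0865 ± 0.0441 to 12.7 ± 3.04 FPKM (12.4-fold on the log2(FPKM + 1) scale, limma adjusted p = 1.62e-06). On that scale the scavenger receptor Msr1 rose 4.57-fold, the receptor chain Il4ra 4.23-fold, and Chil3 2.77-fold. The added 1 FPKM shrinks these folds. In FPKM the means of Msr1 went from 0.0253 to 3.69 and those of Chil3 from 0.149 to 2.19. In intervention versus experimental the median of this list was -0.53, beside 0.0074 over all genes, and Msr1 was at -0.60 ± 0.08 (adjusted p = 0.0615).

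**Figure D5:**
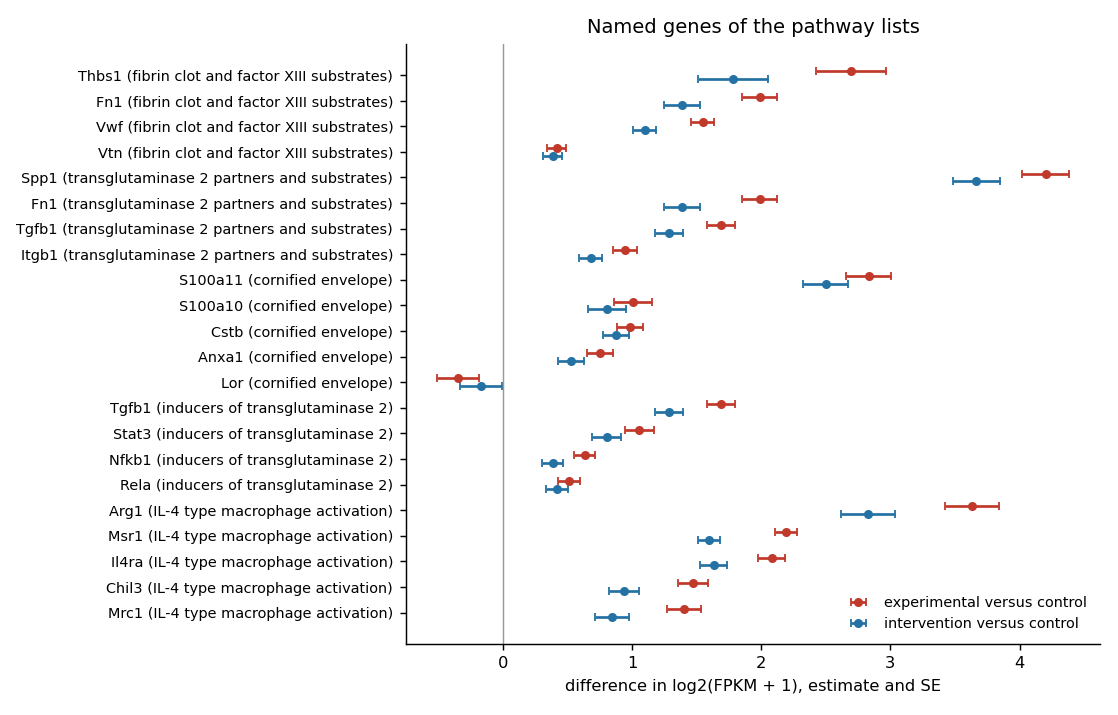
Differences in log2(FPKM + 1) from control (horizontal axis, estimate and SE) of the named genes of 5 pathway lists, in the experimental (red) and intervention (blue) groups. All named genes but Lor lie right of 0, and Spp1 lies furthest right, at 4.20 and 3.66.

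Markers of some cell types moved with the 3 genes, and those of others did not. The summed level of 13 monocyte markers, led by Lyz2 and Fn1, ranged over 14.7 to 16 FPKM for controls, 219 to 235 FPKM for the experimental and 112 to 149 FPKM for the intervention group, and 10 of 11 tested members rose in experimental versus control. For 9 markers of macrophages at brain borders, led by Pf4 and Mrc1, it was 2.81 to 3.00, 21.8 to 24.6 and 13.4 to 15.9 FPKM, with 6 of 6 tested members higher. Pf4, Mrc1 and the monocyte marker Chil3 averaged under 1 FPKM in control. They passed the filter through the other groups, which favours a rise. This limit is not confined to them, since all 9 border markers together reached at most 3.00 FPKM in control. Of the monocyte sum in control, Lyz2 and Fn1 averaged 6.34 and 4.035 FPKM. The counts of both lists are descriptions. For 12 microglia markers the summed level was 127 to 144, 523 to 647 and 437 to 508 FPKM, with 12 of 12 higher. For these 3 lists and for the endothelial and pericyte lists, as for Tgm2 and F13a1, no groups overlapped in the summed level and the intervention libraries lay between. The platelet sum, at 2.15 to 4.45, 10.9 to 13.7 and 7.7 to 8.78 FPKM, did so too. Its change rests on Pf4, which is also on the border macrophage list and averaged 0.675, 10.1 and 5.91 FPKM. The list medians in intervention versus experimental were -0.56 for monocytes, -0.49 for border macrophages, -0.21 for microglia, -0.49 for neutrophils, -0.39 for endothelium, -0.22 for fibroblasts and -0.15 for pericytes, and the 1 tested platelet marker was at -0.68. They were -0.084 for astrocytes, 0.14 for neurons, 0.20 for oligodendrocytes and 0.15 for keratinocytes. The members were at -0.59 for F13a1, -0.47 for Tgm2 and -0.65 for Tgm1.

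Of 11 platelet markers Pf4, which macrophages also make, was the only one tested, and it rose 6.64-fold on the log2(FPKM + 1) scale. Gp1ba, Gp6, Treml1 and Tubb1 were under 0.5 FPKM in every library, and Ppbp and Itga2b averaged 0.452 and 0.403 FPKM in control and 0.276 and 0.391 FPKM in experimental libraries. Of 12 epidermal keratinocyte markers 10 had an entry, 4 were tested and 0 passed, among them Lor and Krt10. Their summed level ranged over 6.98 to 9.36, 5.69 to 8.04 and 6.79 to 8.04 FPKM in the 3 groups, while the basal keratin genes Krt5 and Krt14 and the transcription factor Trp63 were under 0.5 FPKM in every library. Of 10 endothelial markers, led by Cldn5 and Ly6c1, 10 rose, with sums of 67.7 to 74.6, 143 to 168 and 118 to 131 FPKM. Of 10 astrocyte markers, led by Gfap and Aldoc, 8 rose, with sums of 485 to 505, 1020 to 1350 and 1040 to 1170 FPKM. Of fibroblast markers 7 of 10 rose, among them Igfbp2, and 1 fell, while Igf2 did not pass (log2 difference -0.0033, limma adjusted p = 0.992). Of pericyte markers 5 of 9 rose, among them Rgs5 and Tagln. Of 10 neutrophil markers 4 were tested and 3 rose, among them Csf3r, with sums of 2.23 to 11.8, 14.9 to 16.2 and 7.86 to 11.6 FPKM. S100a9, uneven between control libraries at 1.63 ± 2.44 FPKM, did not pass (0.79, limma adjusted p = 0.237). Of oligodendrocyte markers 2 of 8 rose, and of neuronal markers 9 of 12 fell. Of all tested genes 19.9% rose and 17.3% fell in this comparison. The part of any of these cells in the levels of the 3 genes was not tested.

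The cargo named in the series title is miR-124, and its seed sites (GTGCCTT or TGCCTTA) were looked for in the 3' UTR of the longest coding transcript of each gene. None lay in the 194 bases of Tgm1, the 1399 bases of Tgm2 or the 1587 bases of F13a1. Of 12513 tested genes with a 3' UTR of at least 50 bases 24.9% held a site, at a median length of 1288 bases.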

How the data were processed

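Total RNA of mouse brain was sequenced in 9 libraries, grouped as control, experimental or intervention (3 each) by the labels' titles. The deposited table holds FPKM, 1 value for each gene in each library, per the file headers, and the build was mm10, per the submitters' processing notes. No aligner, quantifier or annotation is named in the sources used here. All 9 values of each of the 3 genes, multiplied by the joined exon length of GENCODE M21, were whole in millionths (tolerance 0.01), as length-weighted sums of transcript values would be. For Tgm7 only 2 of 9 values were, so this is not stated for the whole table. The table holds no read counts, and no counting interval is given. Entries with a repeated symbol (137) were kept apart, and 0 columns were left out.

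Genes with at least 1 FPKM in 3 or more libraries were tested (14570). Values were taken as log2(FPKM + 1) and fitted with limma 3.58.1 (R 4.3.3, intensity trend, 1 mean per group, 6 residual and 3.53 prior degrees of freedom), two-sided, with Benjamini-Hochberg adjustment over all genes tested and a threshold of 0.05. The fit was tested on simulated data. Folds are 2 to the power of the difference in log2(FPKM + 1). For a rise from a low level they fall below the ratio of the FPKM means. Exact permutation tests were used for genes under the filter. The members and the lists (6 pathway and 12 cell type lists) were chosen with earlier results of these data known. Named are all other family members, up to 4 tested genes of each other pathway list with the smallest adjusted p in experimental versus control, the 5 genes nearest to each member by Pearson correlation, and the 2 tested markers of highest mean of each cell list, some of which are not reported here. Other genes were chosen after their values were seen. Labels give no batch. Libraries with the same number did not deviate together. A low gene can pass the filter through the group where it is high.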

Additional observations from a re-analysis of the deposited data

How the results depend on the processing

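Members kept their sign in every alternative run. Without the filter, with only the groups compared, or with the replicate block the differences are fixed, since the group means stay the same. With 1 library of 3 left out, a group mean cannot move by as much as its SD. The ranges over these runs are therefore a description. With a pseudocount of 0.1 the differences from control (experimental, then intervention) were 8.35 and 7.68 for Tgm1, 1.80 and 1.28 for Tgm2 and 2.66 and 1.78 for F13a1, and F13a1 was at -0.88 in intervention versus experimental. Rescaled to TPM, where values are larger and the added 1 weighs less, Tgm1 was at 6.65 and 6. F13a1 was then at 2.02 and 1.25, with -0.77 in intervention versus experimental. With quantile normalization F13a1 was at 1.05 and 0.46. With 1 library left out, the ranges for experimental versus control, intervention versus experimental and intervention versus control were 4.96 to 5.4, -0.90 to -0.42 and 4.31 to 4.73 for Tgm1, 1.56 to 1.63, -0.55 to -0.38 and 1.04 to 1.20 for Tgm2, and 1.33 to 1.45, -0.64 to -0.53 and 0.74 to 0.86 for F13a1.

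Rescaled to TPM, 4661 and 3622 genes were lower than control in the experimental and intervention groups, among them 2 and 1 pathway genes. With quantile normalization 3 and 1 pathway genes were lower than control, and in intervention versus experimental 2 genes were higher and 33 lower, among them F13a1 and 1 pathway gene. Without the filter 1069 genes were lower in intervention versus control. With 1 library left out, 850 to 1581 genes were lower there, against 1659, with 918, 966 and 850 without control 1, control 2 and intervention 1. In intervention versus experimental 0 to 1 genes were higher and 0 to 1 lower, and 0 to 1 pathway genes were lower in experimental versus control. The cause was not tested.

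Replicate numbers are shared between groups, but same-numbered libraries did not deviate together (correlations from -0.536 to 0.209). With the replicate block 2666 genes were higher and 2036 lower in experimental versus control and 0 passed in intervention versus experimental.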
